A study of Mus musculus with 32 samples.

Results

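Lysosome genes were followed over 32 lymphomas of Eµ-myc mice, in which the immunoglobulin heavy chain enhancer Eµ drives Myc in the B lineage. The set lists 37 genes for lysosomal enzymes, membrane proteins and regulators, of which 36 had a probe set annotated to their symbol alone. Cd63, the other listed gene, is not analysed here. All 36 passed the filter on dim probe sets, out of 11228 genes that passed in all. The members were split by whether their level followed that of Csf1r, the receptor for the growth factor CSF-1 and a marker of macrophages. Of the 36 members, 21 rose with Csf1r, against 14.8% of all genes, and 15 did not pass the test.

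The lysosome is the acidic compartment in which cells break down proteins, glycans, lipids and engulfed material. Proton pumps in its membrane keep it acidic, LAMP proteins line the membrane, and a large set of hydrolases works inside. Most hydrolases reach it tagged with mannose 6-phosphate. Tfeb, a transcription factor of the MiT/TFE family, binds E-box motifs in the promoters of many lysosomal genes. Macrophages, which engulf dying cells in Myc-driven lymphomas, are rich in lysosomes, but every cell, the lymphoma cell included, has them.

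Every sample was a tumour of 1 genotype, Eµ-myc, with no control tissue and no treatment, and each was measured on 1 Affymetrix Mouse430_2 array. RNA was taken either from frozen lymphoma pieces or from frozen pellets of dispersed cells, and which source a given array used is not stated. Whether each tumour came from a different mouse is not stated either. Tumours are named here by the number in their title, values are log2 expression levels, and no level is set against that of another probe set.

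The promoters of 4 members are shown because they hold the E-box motif TCACGTGA on both sides of the split. The windows run from 250 bases before to 50 bases after the gene's start and are from RefSeq on GRCm38.p6. Ctsa (chr2:164833523-164833822, plus strand) and Ctsd (chr7:142387778-142388077, minus strand) rose with Csf1r, and Cln3 (chr7:126583187-126583486, minus strand) and Mcoln1 (chr8:3500269-3500568, plus strand) did not pass the test. Each is given on the gene's strand, with the longest motif found in capitals.
Ctsa: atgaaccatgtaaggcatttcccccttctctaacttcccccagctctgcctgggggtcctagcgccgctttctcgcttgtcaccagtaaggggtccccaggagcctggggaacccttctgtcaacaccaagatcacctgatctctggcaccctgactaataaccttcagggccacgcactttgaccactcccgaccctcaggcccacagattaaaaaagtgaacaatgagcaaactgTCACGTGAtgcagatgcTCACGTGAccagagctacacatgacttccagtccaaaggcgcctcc
Ctsd: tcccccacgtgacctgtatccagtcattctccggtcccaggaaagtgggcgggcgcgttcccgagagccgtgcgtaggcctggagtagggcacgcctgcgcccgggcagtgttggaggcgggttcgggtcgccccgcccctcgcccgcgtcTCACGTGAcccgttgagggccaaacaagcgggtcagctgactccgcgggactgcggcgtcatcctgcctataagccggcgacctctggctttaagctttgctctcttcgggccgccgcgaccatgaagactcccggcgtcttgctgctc
Cln3: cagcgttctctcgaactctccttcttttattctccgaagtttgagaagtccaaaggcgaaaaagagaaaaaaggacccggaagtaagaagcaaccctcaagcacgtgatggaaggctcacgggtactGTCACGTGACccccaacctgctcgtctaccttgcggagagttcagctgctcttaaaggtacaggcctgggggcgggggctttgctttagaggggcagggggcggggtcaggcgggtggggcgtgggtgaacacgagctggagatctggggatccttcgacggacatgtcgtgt
Mcoln1: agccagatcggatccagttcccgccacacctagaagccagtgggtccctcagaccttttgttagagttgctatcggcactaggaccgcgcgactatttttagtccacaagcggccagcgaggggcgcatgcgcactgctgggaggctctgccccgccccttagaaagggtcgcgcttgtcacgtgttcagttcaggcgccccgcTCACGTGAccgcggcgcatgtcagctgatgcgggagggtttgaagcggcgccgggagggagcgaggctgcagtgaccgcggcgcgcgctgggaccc

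A window was found for 31 of the 36 members. The motifs searched were CACGTG, the E-box core, TCACGTGA, and the 10-base palindrome known as the CLEAR element, in capitals in Cln3. Each reads the same on both strands, and each longer motif contains the shorter ones. CACGTG stood in 12 of 31 member windows (38.7%), against 8.09% of the 27025 genes with a window. It stood in 6 of 16 windows of members that rose with Csf1r (Ctsa, Ctsd, Ctsl, Lamp1, Lgmn and Sgsh) and in 6 of 15 windows of the others (Cln3, Gaa, Gla, Glb1, Mcoln1 and Mcoln2). TCACGTGA stood in 5 member windows, those of Ctsa and Ctsd among the risers and of Cln3, Gla and Mcoln1 among the others, and in 1.12% of all genes. The 10-base element stood in the window of Cln3 alone among the members and in 0.37% of all genes. In Ctsa, 1 copy of TCACGTGA began 13 bases before the start, and in Mcoln1 it began 46 bases before it. A motif match is a description of the letters in the window and does not tell which factor, Tfeb or another, binds there.

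Csf1r itself ranged over 3.36 log2 units, from 8.89 in tumour 14 through a median of 10.04 to 12.25 in tumour 24. Tumours 24, 2 and 30 were highest, at 12.25, 12.02 and 11.77, and tumours 14, 28 and 23 were lowest, at 8.89, 9.02 and 9.20. The values did not fall into separate clusters, as the widest gap was 8.94% of the range. The 2 other Csf1r probe sets followed the one used with r of 0.99 and 0.96. Macrophage markers rose with it in 10 of 15 cases, against 14.8% of all genes. They were led by the complement gene C1qa, which had a slope of 0.90 and r of 0.93. Without tumours 24 and 2, 7 of the 15 rose, against 1276 of 11227 genes. With all tumours the markers Cd5l, Marco, Adgre1, Mrc1 and Slc40a1 did not pass the test. Their slopes were 0.58, 0.52, 0.21, -0.21 and 0.01. The tumours are bulk samples, so the cells that gave the Csf1r RNA are not resolved. Fewer macrophages and less Csf1r RNA per macrophage cannot be told apart either.

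A slope here is the change in a gene's log2 level per log2 unit of Csf1r, fitted with limma across 11227 genes and adjusted over all of them by Benjamini-Hochberg. With an adjusted p under 0.05, 21 of 36 lysosome genes rose with Csf1r and 0 fell, against 14.8% of all genes that rose and 19.7% that fell. At an unadjusted p under 0.05, 1 member had a negative slope. The median slope was 0.25 over the members and -0.03 over all genes. Under rank correlation with a permutation test, 19 members rose and 0 fell, against 10.1% and 11.5% of all genes. Both members lost there, Tpp1 and Ctsz, had rho of 0.34 (adjusted permutation p = 0.156 and 0.157). Lamp1 had rho of 0.82, Ctsl 0.82 and Asah1 0.79, each with a permutation p of 1e-05 for r and for rho, the smallest that 100000 resamples can give.

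**Figure D1:**
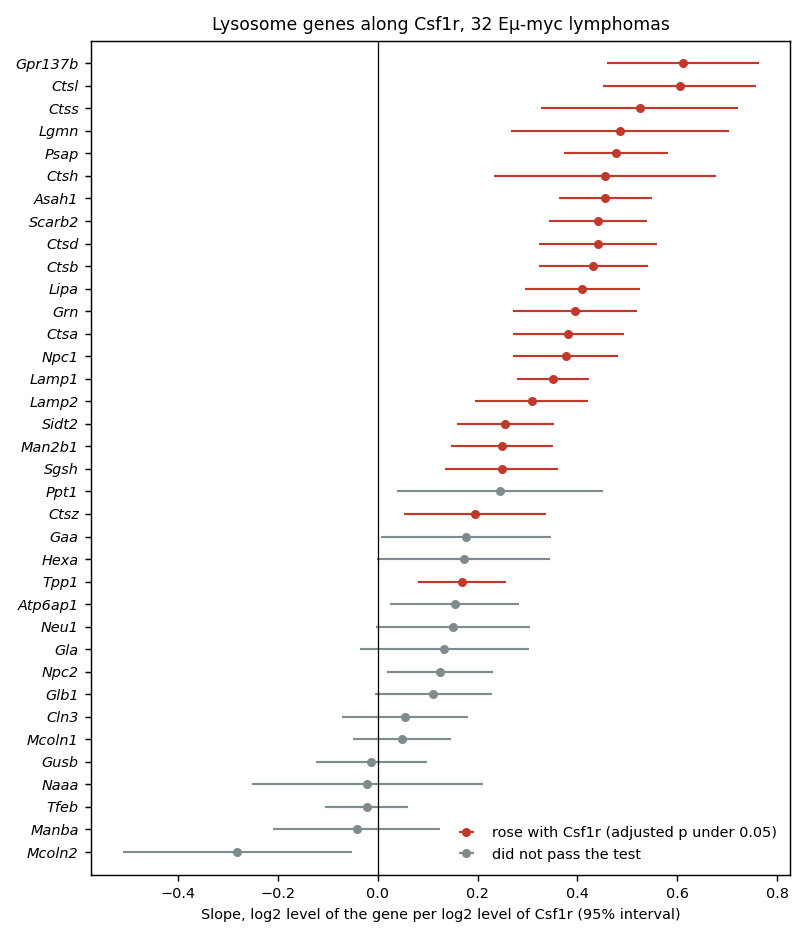
Slope of each of 36 lysosome genes on Csf1r, in log2 per log2, with its 95% interval, over 32 tumours. Red points are the 21 genes that rose with Csf1r and grey points the 15 that did not pass the test. Gpr137b and Ctsl lie farthest right, at 0.61 and 0.60, and Mcoln2 is farthest left, at -0.28.

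The proteases rose without exception: all 9 passed the test, against 14.8% of all genes that rose, with a median slope of 0.44. Ctsl, a cysteine endopeptidase, had 8.52 in tumour 29, a median of 9.82 and 11.81 in tumour 30. Its slope was 0.60 ± 0.08 (SE, n = 32), or 1.52-fold per doubling of Csf1r, with a limma adjusted p of 4.05e-07 and the same r of 0.82 with and without tumours 24 and 2. Ctsb, a cysteine protease, ran from 11.39 in tumour 14 through a median of 12.11 to 13.29 in tumour 30. Its slope was 0.43 ± 0.05 (limma adjusted p = 3.76e-07). Ctsd, the main aspartic protease of the lysosome, ran from 10.40 in tumour 23 through 11.15 to 12.51 in tumour 30. Its slope was 0.44 ± 0.06 (limma adjusted p = 8.71e-07). Thus the same tumour, 30, was highest for these 3 proteases.

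Ctsa, the carboxypeptidase that holds Neu1 and Glb1 in a protective complex, had a slope of 0.38. It ran from 9.02 in tumour 28 through 10.23 to 11.54 in tumour 30, and a second, dimmer probe set did not follow Csf1r (r = -0.12). Lgmn, the asparaginyl endopeptidase legumain, had a slope of 0.48 and ran from 8.61 in tumour 15 to 11.68 in tumour 30. Ctss, which trims the invariant chain of MHC class II, had a slope of 0.52 and ran from 9.46 in tumour 29 to 13.35 in tumour 24. Ctsh, an aminopeptidase, had a slope of 0.46 and ran from 8.28 in tumour 29 to 11.51 in tumour 30. Tumour 29 was thus the lowest for both Ctss and Ctsh. The weakest of the group were Tpp1, a tripeptidyl peptidase, with a slope of 0.17 ± 0.04 (limma adjusted p = 0.00315), and Ctsz, a carboxypeptidase, with 0.20 ± 0.07 (limma adjusted p = 0.0291). Ctsz ran from 11.31 in tumour 25 through 12.02 to 12.83 in tumour 2. Its r was 0.45, and 0.20 without tumours 24 and 2, so its relation rests on those tumours. Its call was also lost when tumour 2, 24, 28 or 30 was left out alone, with slopes between 0.15 and 0.25 over all single omissions. Without tumours 24 and 2 Tpp1 had a slope of 0.12 (limma adjusted p = 0.0834), and without tumours 2, 10 and 24 Ctsh had 0.35 (limma adjusted p = 0.0585).

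Of the 10 membrane proteins, 6 rose, against 14.8% of all genes. Lamp1, a major glycoprotein of the lysosomal membrane, had 10.998 in tumour 12, a median of 11.31 and 12.38 in tumour 30. Its slope was 0.35 ± 0.04, or 1.28-fold per doubling of Csf1r, with r of 0.88 and a limma adjusted p of 9.08e-09. Lamp2, its relative, had a slope of 0.31, and its 4 probe sets had r with Csf1r between 0.69 and 0.73. Scarb2, the receptor that carries glucocerebrosidase to the lysosome, ran from 9.03 in tumour 12 through 9.54 to 10.76 in tumour 30, with a slope of 0.44 ± 0.05 (limma adjusted p = 4.53e-08). Gpr137b, a lysosomal membrane protein, had the steepest slope of all members. It ran from 7.63 in tumour 31 through 8.32 to 10.35 in tumour 30, a slope of 0.61 ± 0.07 and 1.53-fold per doubling (limma adjusted p = 2.58e-07). The cholesterol exporter Npc1 had a slope of 0.38 and ran from 5.92 in tumour 28 to 8.01 in tumour 24. Sidt2, a putative nucleic acid transporter, had a slope of 0.26, and it was highest in tumour 2, at 9.82.

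The other 4 membrane proteins did not pass the test. Atp6ap1, an accessory subunit of the proton pump, had a slope of 0.15 (limma adjusted p = 0.0601). The channel Mcoln1 had 0.05 and Cln3, a protein lost in a childhood neurodegenerative disease, had 0.05. Mcoln2, a second channel of the same family, had a slope of -0.28, with a 95% interval of -0.51 to -0.05 and a limma adjusted p of 0.0508. Over single omissions its slope lay between -0.32 and -0.12, nearest to 0 without tumour 2, and it passed under 9 of them. Its slope was -0.08 and its r -0.13 without tumours 24 and 2.

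**Figure D2:**
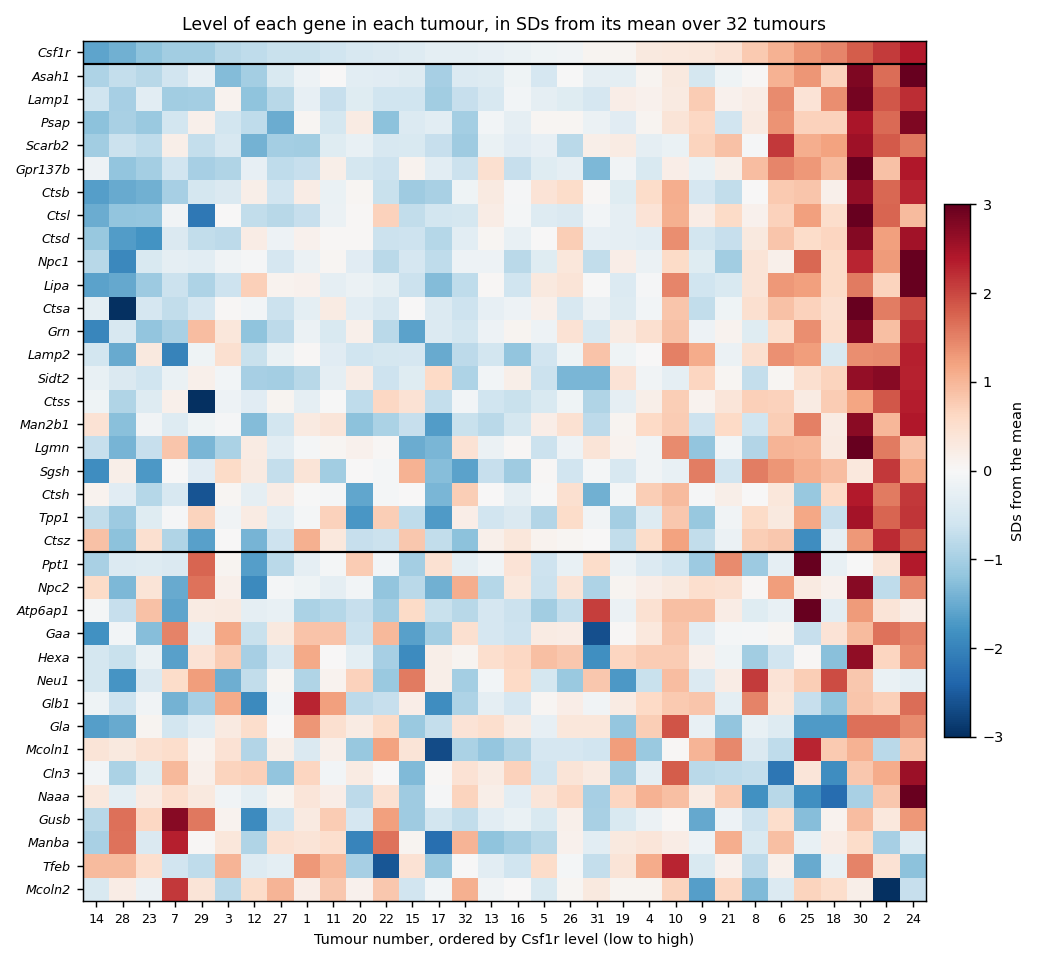
Level of Csf1r (top row), of the 21 genes that rose with it (middle) and of the 15 others (bottom) in each of 32 tumours, in SDs from the gene's mean, with tumours ordered by Csf1r from low to high. Tumours 30, 2 and 24 at the right end are red over most of the middle block and mixed in the bottom block.

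Among genes of lipid handling, 3 of 6 rose, against 14.8% of all genes. Asah1, the acid ceramidase, had the largest t of all members. It ran from 9.12 in tumour 3 through a median of 9.57 to 11.02 in tumour 24, with a slope of 0.46 ± 0.05 and 1.37-fold per doubling (limma adjusted p = 9.08e-09). Psap, the precursor of the saposins that present lipids to hydrolases, ran from 11.31 in tumour 27 through 11.96 to 13.34 in tumour 24, with a slope of 0.48 ± 0.05 (limma adjusted p = 2.49e-08). Lipa, the acid lipase, had a slope of 0.41 and ran from 8.41 in tumour 14 through 9.07 to 10.48 in tumour 24. Tumour 24, highest for Csf1r, was thus highest for all 3.

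The other lipid genes did not pass. Npc2, which hands cholesterol to Npc1, had a slope of 0.13 (limma adjusted p = 0.0598), and Ppt1, a palmitoyl thioesterase, had 0.24 (limma adjusted p = 0.0591). Naaa, an amidase related to Asah1, ran from 6.88 in tumour 18 through 8.25 to 9.76 in tumour 24, with a slope of -0.02 ± 0.11. Without tumours 24 and 2, the farthest from the Csf1r median, it fell with Csf1r, with a slope of -0.33 and r of -0.50 (limma adjusted p = 0.0191). Tumour 24 thus held the highest level of both Naaa and Asah1.

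Of 9 glycan-degrading enzymes 2 rose, against 14.8% of all genes. These were Man2b1, an acid mannosidase, and Sgsh, the sulfatase that acts on heparan sulfate, each with a slope of 0.25. Man2b1 had r of 0.67 on the probe set used and 0.11 on its second. Sgsh had 0.63 on the probe set used, which was dim (mean 6.14), and 0.13 on a second that failed the filter. Gaa, the acid glucosidase lacking in Pompe disease, had a slope of 0.18, Hexa of 0.17, Neu1, the sialidase, of 0.15, Gla of 0.13 and Glb1 of 0.11, none of which passed. Gusb, the acid glucuronidase, ran from 9.89 in tumour 12 through 10.33 to 11.08 in tumour 7, with a slope of -0.01 and a 95% interval of -0.12 to 0.10. Manba had a slope of -0.04, with an interval of -0.21 to 0.12.

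Grn, the precursor of granulins, rose. It ran from 10.41 in tumour 14 through 11.21 to 12.50 in tumour 30, with a slope of 0.40 and 1.32-fold per doubling, and its 3 probe sets had r between 0.71 and 0.76. Tfeb did not pass. It ran from 7.87 in tumour 22 through 8.34 to 8.78 in tumour 10, with a slope of -0.02 and an interval of -0.10 to 0.06. A rise of over 0.06 log2 per log2 of Csf1r thus lay outside the interval of Tfeb, while 21 members had slopes from 0.17 to 0.61.

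**Figure D3:**
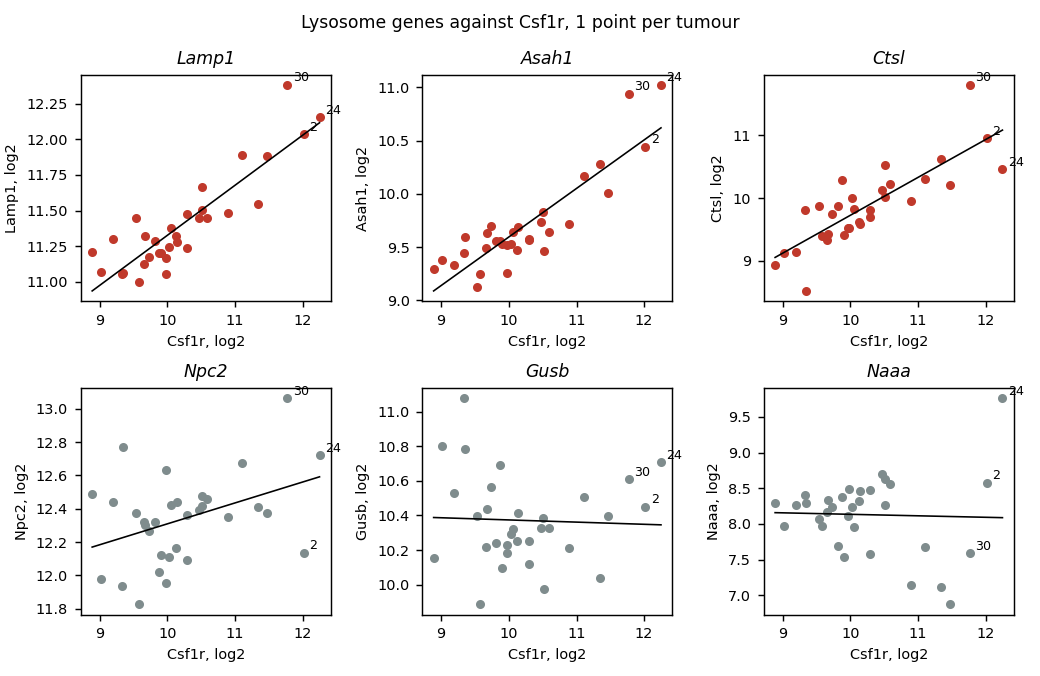
Level of 6 lysosome genes (vertical axis, log2) against Csf1r (horizontal axis, log2), with 1 point per tumour, the fitted line, and tumours 2, 24 and 30 numbered. Lamp1, Asah1 and Ctsl (red) rose with Csf1r. Npc2, Gusb and Naaa (grey) did not pass the test, and the points for Naaa slope down except at tumours 24 and 2.

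Nearest to the threshold on the passing side were Ctsz, Tpp1 and Ctsh. On the other side lay Mcoln2, Ppt1 and Npc2, with limma adjusted p of 0.0508, 0.0591 and 0.0598. Slopes ran on across the threshold without a gap, as Ppt1, which did not pass, had a steeper slope than Ctsz and Tpp1, which did.

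Members that rose also moved together. Their mean pairwise r was 0.65 and 169 of 210 pairs exceeded 0.5, against 0.12 and 7 of 105 pairs among the other members. The split itself raises the first value, since genes that all follow Csf1r tend to follow each other. With the Csf1r slope removed the means were 0.26 and 0.10. Ctsb and Ctsd were the closest pair, with r of 0.95, and 0.84 after removal. The subunits of 1 complex were less close: Ctsa had r of 0.40 with Neu1 and 0.40 with Glb1, and Neu1 had -0.08 with Glb1. The lowest r was -0.55, between Neu1 and Naaa. The median SD over tumours was 0.41 for the members and 0.28 for all genes, and 31 of 36 members lay above 0.28. Tumour 30 was among the 3 highest tumours for 19 of the 21 risers, tumour 24 for 17 and tumour 2 for 15, while tumour 28 was among the 3 lowest for 11. The split raises these counts too, since tumours 24, 2 and 30 were the 3 highest for Csf1r and tumour 28 was among its 3 lowest. Tumour 30 was also 1 of 11 tumours with high Bpifa2, a salivary gene, at 12.97 or more against 5.19 or less elsewhere. The 11 were tumours 3, 4, 9, 12, 15, 16, 18, 20, 25, 29 and 30. Whether salivary tissue bears on the lysosome genes there was not tested.

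Some marker genes of other cell types also passed the test on Csf1r. All 5 T cell genes tested rose, and the T cell mean ran from 5.70 in tumour 31 to 9.76 in tumour 24. Without tumours 24 and 2, 1 of the 5 rose. Of 8 stroma genes 3 rose, of 5 dendritic cell genes 3 rose and 1 fell, and of 7 B cell genes 2 fell, Cd79a and Cd79b. The shares over all genes were 14.8% that rose and 19.7% that fell. Without the same tumours 5 stroma genes rose, 1 dendritic cell gene rose and 0 fell, and 0 B cell genes fell. In that fit 1276 of 11227 genes rose and 1667 fell. Of 7 neutrophil genes 0 passed in limma, and 0 had an unadjusted p under 0.05. In a joint limma fit with Cd3g for T cells, Col3a1 for stroma and S100a8 for neutrophils as covariates, 22 of 36 members rose and 0 fell, against 14.6% and 18% of all genes. Ctsz left the risers (limma adjusted p = 0.108), and Npc2 and Neu1 joined them, with slopes of 0.15 and 0.25 (limma adjusted p = 0.0416 and 0.00766). The call of Npc2 was lost under 9 single omissions and that of Neu1 under 0. Other probe sets of Npc2 had r with Csf1r of 0.28, 0.19 and -0.21, against 0.40 for the one used. Those of Neu1, which failed the filter, had -0.12 and -0.23, against 0.33. The part of dendritic cells in the slopes of the joint fit was not tested.

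The same limma fit was made on 7 other genes, 1 at a time. On Cd3g 3 members rose, Sidt2, Psap and Naaa, against 8.25% of all genes, and Mcoln2 fell, against 9.66%. None of these calls held without tumours 24 and 2, where r was 0.14 for Sidt2, 0.0036 for Psap, 0.25 for Naaa and -0.49 for Mcoln2. On Col3a1 only Hexa rose, against 2.32% of all genes, and 0 members fell, against 1.45%. Hexa had a slope of 0.20 with a limma adjusted p of 0.0476 that 22 single omissions took over the threshold. On S100a8 0 of 36 members passed in limma, against 0.107% of all genes that rose and 0.0356% that fell, and 1 had an unadjusted p under 0.05. On Tfeb itself 0 of 35 members passed, against 0.0713% that rose and 0.0267% that fell. The RNA level of Tfeb varied little, with an SD of 0.19, and the activity of the factor was not measured. At an unadjusted p under 0.05 Tfeb had 5 members, namely Ctsz, Glb1, Ctsh and Hexa with positive slopes and Ppt1 with a negative one.

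Along Ms4a1, the B cell gene for CD20, 3 cathepsins rose, against 1.08% of all genes, and 0 members fell, against 0.971%. Ms4a1 ran from 5.31 in tumour 29 to 13.25 in tumour 2. Ctsh had a slope of 0.26 ± 0.05 and r of 0.70, Ctss 0.24 ± 0.05 and r of 0.64, and Ctsz 0.13 ± 0.03 and r of 0.59 (limma adjusted p = 0.00494, 0.0093 and 0.0239). Their rho were 0.56, 0.40 and 0.56 (permutation p = 0.0009, 0.023 and 0.00088). Ctsh had its lowest level, 8.28, and Ctss its lowest, 9.46, in tumour 29, where Ms4a1 was lowest too. Without tumour 29 Ctss and Ctsz missed the threshold, and without tumours 29 and 31 all 3 did, with r of 0.53, 0.37 and 0.59. With both genes in 1 limma fit, a choice made after seeing the data, Ctsh had a slope of 0.39 on Csf1r and 0.24 on Ms4a1 (adjusted p = 8.66e-05 and 0.00029). Ctss had 0.47 and 0.21 (adjusted p = 2.27e-06 and 0.000317), and Ctsz had 0.17 and 0.12 (adjusted p = 0.026 and 0.0211).

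**Figure D4:**
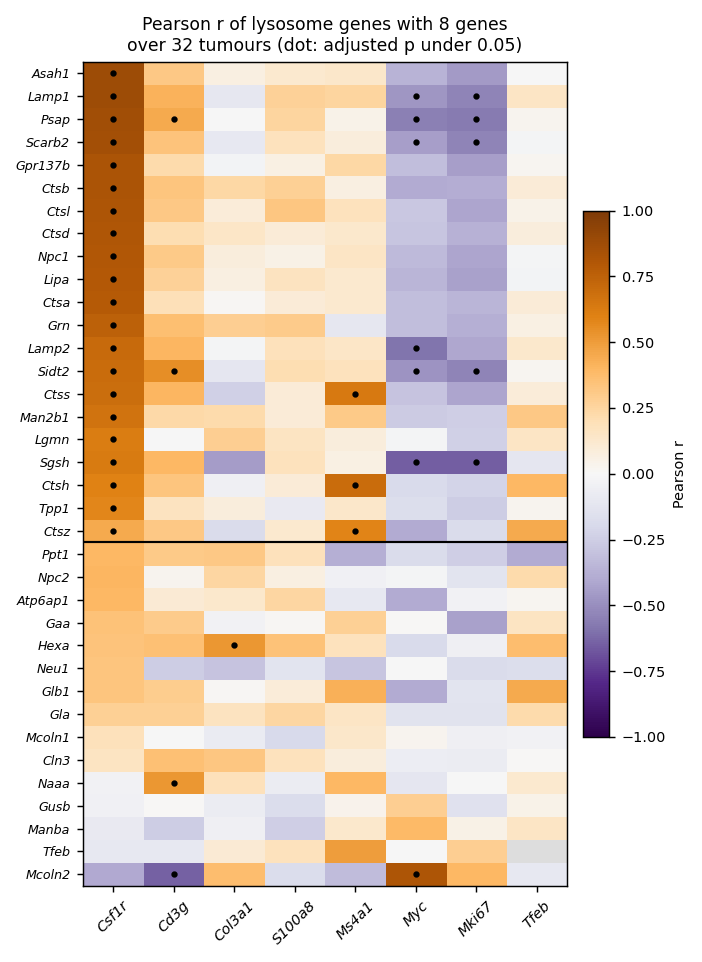
Pearson r of 36 lysosome genes (rows, risers with Csf1r above the line) with 8 genes (columns) over 32 tumours. Dots mark a limma adjusted p under 0.05. The Csf1r column holds 21 dots, the Ms4a1 column 3, on Ctss, Ctsh and Ctsz, and the Myc column 7, with Mcoln2 the only riser. The grey cell is Tfeb with itself.

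Mcoln2 followed Myc, the gene that the transgene carries. It ran from 7.23 in tumour 2 through a median of 9.52 to 10.71 in tumour 7, and Myc had its lowest and highest levels, 9.81 and 12.30, in the same tumours. The slope was 0.98 ± 0.12 (SE, n = 32; limma adjusted p = 1.31e-05), with r of 0.82 and rho of 0.64. The two-sided permutation p was 1e-05 for r, the smallest that 100000 resamples can give, and 0.00012 for rho. Without tumours 2 and 7 r was 0.66, and the call held when any single tumour was left out. With Csf1r in the same limma fit, a choice made after seeing the data, Mcoln2 had a slope of 1.002 ± 0.145 on Myc (adjusted p = 0.000806) and of 0.03 on Csf1r (adjusted p = 0.835). Mcoln2 also had r of -0.64 with Cd3g, and of -0.49 without tumours 24 and 2. Whether its relation to Myc holds at equal levels of Cd3g was not tested.

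Along Myc, Mcoln2 was the 1 member that rose, against 10.4% of all genes. The 6 that fell were Sgsh, Lamp2, Psap, Sidt2, Lamp1 and Scarb2, against 9.67% of all genes, all of them risers with Csf1r. The call of Scarb2, with a limma adjusted p of 0.0482, was lost under 24 single omissions, that of Lamp1 under 4 (tumours 2, 7, 9 and 24) and that of Sidt2 under 2 (tumours 2 and 24). Sgsh had a slope of -0.44 and r of -0.65, Lamp2 -0.44 and -0.59, and Psap -0.52 and -0.55. Along Mki67, a proliferation marker, Sgsh, Psap, Scarb2, Sidt2 and Lamp1 fell, against 4.1% of all genes, and 0 rose, against 2.96%. Mki67 itself varied little, from 12.04 in tumour 2 to 12.70 in tumour 31, with an SD of 0.18. On Mki67 the call of Lamp1 was lost without tumour 2, 6, 18 or 24, that of Scarb2 without 2, 6 or 24, that of Sidt2 without 2, 24 or 26 and that of Psap without 2 or 24. Csf1r itself had r of -0.53 and rho of -0.49 with Myc (permutation p = 0.00185 and 0.00513), and r of -0.55 and rho of -0.32 with Mki67 (permutation p = 0.00119 and 0.078). Without tumours 24 and 2 these r were -0.29 and -0.36. Without tumours 2 and 7, farthest out on Myc, 1 member rose and 1 fell on Myc, against 2.7% and 2.93% of all genes. Without tumour 30 the counts were larger: 15 members fell on Myc, against 12% of all genes, and 14 on Mki67, against 6.44%. With Csf1r as a covariate, Mcoln2 alone passed on Myc, against 3.5% of all genes that rose and 3.32% that fell. On Mki67 0 members then passed in limma, against 0.00891% and 0%, and 1 had an unadjusted p under 0.05.

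**Figure D5:**
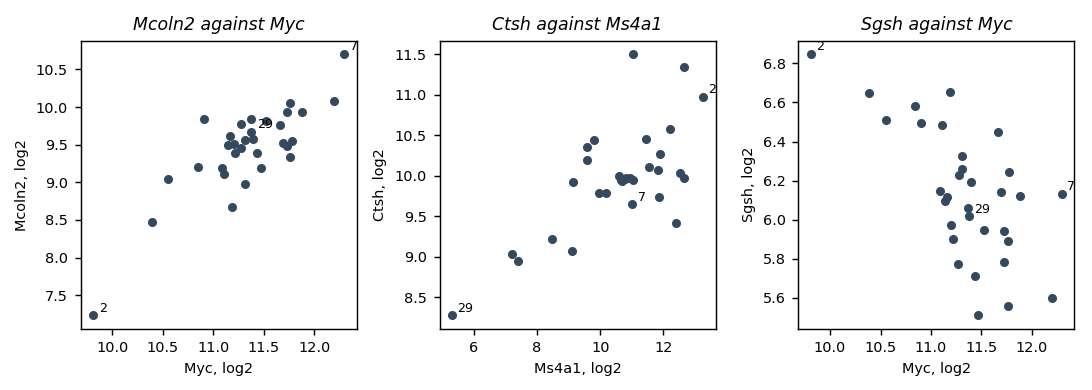
Mcoln2 against Myc (left), Ctsh against Ms4a1 (middle) and Sgsh against Myc (right), log2 levels with 1 point per tumour and tumours 2, 7 and 29 numbered. Mcoln2 is lowest in tumour 2 and highest in tumour 7, Ctsh is lowest in tumour 29, and Sgsh is highest in tumour 2.

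Further genes of the pathway were counted from lists, on the same Csf1r fit. Of 37 other lysosomal genes 20 rose and 0 fell, against 14.8% and 19.7% of all genes. Without tumours 24 and 2, 15 of the 37 rose, against 1276 of 11227 genes. In the full fit Acp2, an acid phosphatase, led them with a slope of 0.66. Laptm5, a lysosomal membrane protein of blood cells, had 0.61, and Slc11a1, the metal transporter of phagocytes, had 0.59. The lowest were Ctsf at -0.02 and Abca2 at -0.10, which did not pass. Of 15 proton pump subunits 6 rose and 0 fell, against the same 14.8% and 19.7% of all genes. They were led by Atp6v0a1 at 0.24, Atp6v0d1 at 0.20 and Atp6ap2 at 0.21, and the median of the 15 was 0.11. When tumours 24 and 2 were left out, 3 of the 15 rose, against the same 1276 of 11227 genes.

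Among 19 genes of the MiT/TFE factors and of mTORC1 signalling, 7 rose and 1 fell, against 14.8% and 19.7% of all genes. Mitf, Tfec and Tfe3, relatives of Tfeb, had slopes of 0.64, 0.60 and 0.29, against -0.02 for Tfeb. Fnip2, a partner of folliculin, had 0.77. Rheb, the GTPase that activates mTORC1, fell, with a slope of -0.15. Among 23 autophagy genes 5 rose and 2 fell, led by Gabarapl1 at 0.60, with Wipi2 and Pik3c3 falling at -0.23 and -0.13, against 14.8% of all genes that rose and 19.7% that fell. The joint fit gave 8 autophagy genes that rose and 2 that fell, against 14.6% and 18% of all genes. Of 10 MHC class II genes 3 rose and 0 fell, against the same 14.8% and 19.7%, and 0 rose in the joint fit or without tumours 24 and 2.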

How the data were processed

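Total RNA had been made into biotin-labelled cRNA and hybridised to arrays, per the labels' protocols. The deposited values are log2 levels. Per the submitters' processing notes, the authors made them with RMA in affy. The sources used here name no version and no batch. RMA equalises the arrays, so a shift shared by most genes is not visible. Array medians lay between 5.72 and 5.80. Precision is limited by having 32 arrays.

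Of 45101 probe sets, 34958 had 1 gene symbol, 932 several and 9211 none in the platform annotation. Those with a mean of at least 5.78, the median of all, were kept, and each gene took its probe set with the highest mean. Slopes came from limma 3.58.1 in R 4.3.3 (lmFit, eBayes, Benjamini-Hochberg over all genes), leaving out the axis gene. The fit was tested on simulated data in which the noise was drawn independently for each gene. Genes here vary together, so that test checks the fitting step and not the calls on these data. Correlations were tested two-sided with 100000 permutations in Python 3.11.15, numpy 2.4.6 and scipy 1.17.1. With 1 group in the labels, no groups were compared. Each p-value tests a slope or a correlation against the variation among these tumours. It treats the tumours as independent, though whether each came from a different mouse is not stated.

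Members, lists and tests were chosen with earlier results of these data known. All members could be named, with full statistics for those with the largest, smallest and near-threshold t. Other lists gave their 3 largest and 2 smallest t; examples beyond those were chosen after their values were seen.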

Additional observations from a re-analysis of the deposited data

How the results depend on the processing

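Between 19 and 23 members rose with Csf1r under the alternatives, and between 20 and 24 with 1 tumour left out. Of the 21 calls, 17 held under every alternative, the exceptions being Ctsh, Ctsz, Sgsh and Tpp1. Of the 15 members that did not pass, only 1, Glb1, kept its side of the threshold and its direction under every alternative. Single omissions moved Ppt1 and Npc2 across the threshold for 4 tumours each, Atp6ap1 for 3, and Gaa and Hexa for 1 each. The number that fell was 1 in place of 0 with a filter at the 75th percentile, without tumours 24 and 2, without tumours 2, 10 and 24, and without the 11 tumours with high Bpifa2, a salivary gene; it ranged from 0 to 1 with 1 tumour left out. In the joint fit the number that fell was 1 without tumours 24 and 2 and without tumours 2, 10 and 24, and ranged from 0 to 1 with 1 tumour left out. The joint fit gave 16 risers without the Bpifa2 tumours. No paired analysis was possible because the labels give 1 group.

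Calls on other axes depended more on single tumours. Without the pair of tumours most distant from the axis median, calls numbered 0 on Cd3g (4 otherwise), 0 on Col3a1 (1), 0 on Ms4a1 (3), 2 on Myc (7) and 0 on Mki67 (5). Without tumours 2, 10 and 24 they numbered 0 on Cd3g, 1 on Myc and 0 on Mki67. Without the Bpifa2 tumours they numbered 15 on Cd3g (14 rose, against 9.76% of all genes), 0 on Col3a1, 0 on Ms4a1, 17 on Myc (16 fell, against 11.4%) and 12 on Mki67 (all fell, against 6.36%). With arrays shifted by reference genes they numbered 0 on Col3a1, 4 on Myc and 2 on Mki67. Col3a1 also had 0 with the mean of all probe sets, with no filter and with the stricter filter. With Csf1r as a covariate, added after seeing the data, they numbered 1 on Myc and 0 on Mki67. With 1 tumour left out they ranged from 1 (without tumour 24) to 13 (without tumour 30) on Cd3g, from 0 to 2 on Col3a1, from 1 (without tumour 29) on Ms4a1, from 4 (without tumour 2) to 16 (without tumour 30) on Myc and from 1 (without tumour 2) to 14 (without tumour 30) on Mki67. The cause was not tested.

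Proton pump risers numbered 3 in place of 6 without tumours 24 and 2, and without tumours 2, 10 and 24. The median SD of members was 0.36 with the mean of all probe sets and 0.31 from the median absolute deviation. The motif count was 12 with the 6-base core in place of 5. Slopes on Csf1r that turned their sign were all of members that did not pass. Without the Bpifa2 tumours Mcoln1 had -0.0179 and Naaa 0.178. Without tumours 24 and 2 Cln3 had -0.0708 and Manba 0.0095, and without tumours 2, 10 and 24 they had -0.0883 and 0.0075. With C1qa as the axis Naaa had 0.0309 and Gusb 0.0281. With the macrophage score they had 0.125 and 0.0461, and Tfeb had 0.0064.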
